A study of Mus musculus with 6 samples.

Results

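Integrins, laminins, collagens, fibulins and the ADAM and ADAMTS proteases were examined in γδ thymocytes whose gene for the transcription factor NFATc1 was intact or deleted. The genes were taken by name, as the protein-coding genes whose symbols begin with *Itga* or *Itgb*, or with *Lam*, *Col*, *Fbln*, *Adam* or *Adamts* and the number of a chain or member, and *Itgam* and *Itgax* were left out. The rule found 141 of the 41195 genes in the tables: 16 integrin α chains, 9 integrin β chains, 11 laminin chains, 44 collagen chains, 4 fibulins, 33 ADAM genes, 19 ADAMTS genes and 5 genes that carry such a name but encode no chain. RNA-seq covered 6 libraries, of which 3 carry the label *Nfatc1fl/fl* (control) and 3 the label *Rag1Cre-Nfatc1fl/fl*. In both groups exon 3 of both *Nfatc1* alleles is flanked by loxP sites, and in the second group a Cre recombinase expressed from the *Rag1* locus removes it in early thymocytes and in all cells that descend from them. Per the methods of the study, mice were 4 to 6 weeks old, on a C57/B6 background and matched for age and sex. γδ thymocytes were isolated with a magnetic kit and not by a flow cytometric sort. The labels do not say whether the 3 samples of a group came from separate mice or pools, and the p-values therefore rest on the spread among these 6 libraries, part of which may be technical.

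Integrins are receptors of an α and a β chain that bind other cells or the extracellular matrix, and their adhesiveness is set from inside the cell by talin and kindlin. Thymocytes use them to travel between thymic regions, and γδ T cells carry some of them to skin and gut, where αEβ7 binds E-cadherin on epithelium. Laminins and collagens are trimers that build basement membranes and fibres, and fibulins are secreted proteins that tie matrix fibres together. ADAM proteases sit in the cell membrane and cut the outer parts off other membrane proteins, whereas ADAMTS proteases are secreted and cut matrix.

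Total gene reads lay between 20734771 and 22638531 per library, and the 141 genes took 0.329% to 0.442% of them. The third *Rag1Cre-Nfatc1fl/fl* library stood apart: ribosomal protein genes took 17.4% of its reads, against 12.4% and 13.3% in the other *Rag1Cre-Nfatc1fl/fl* libraries and 9.46% to 10.4% in the controls. In this library 62.5% of the tested members (35 of 56) had their lowest CPM (counts per library size, scaled to 1e6 reads by TMM) of the 3 *Rag1Cre-Nfatc1fl/fl* libraries, compared with 42.7% of all tested genes. The members are also long, with a median exon length of 6566 bases against 4144 bases for all tested genes, and the part of length in this deviation was examined only by removing each library's length trend. Reads over the whole *Nfatc1* gene gave 197, 208 and 205 CPM in the controls and 367, 437 and 310 CPM in the *Rag1Cre-Nfatc1fl/fl* libraries, so total *Nfatc1* RNA was higher there (log2 fold change 0.87 ± 0.13 SE, edgeR adjusted p = 0.0028). Gene-level counts do not separate the deleted exon 3 from the rest of the transcript and therefore do not check the deletion, and group names below are those of the labels. By RT-PCR the study reported strongly reduced *Nfatc1* RNA in double-negative, double-positive and single-positive thymocytes of *Rag1Cre-Nfatc1fl/fl* mice. In the double-negative cells its primer pairs reached into exon 3. T cell and γδ TCR genes were high in each library, with a summed 4342 to 4561 CPM over 11 genes in the controls and 4376 to 4775 CPM in the *Rag1Cre-Nfatc1fl/fl* libraries. Of the 11, 1 was called higher and 2 lower: *Zap70* had 362, 355 and 350 CPM in the controls against 487, 555 and 567 CPM, *Trdc* 194, 200 and 206 CPM against 127, 124 and 93.3 CPM, and *Tcrg-C1* 313, 330 and 342 CPM against 208, 196 and 223 CPM. A list of 10 αβ and double-positive thymocyte genes, with none called higher and 1 lower, summed to 1684, 1675 and 1684 CPM in the controls and 1422, 1170 and 1964 CPM in the *Rag1Cre-Nfatc1fl/fl* libraries, highest in the third, and its part in the results was not tested.

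Of the 141 members, 118 had a read, and 56 passed edgeR's filter on low counts and were tested. Calls required an edgeR adjusted p below 0.01 together with a log2 fold change of more than 0.5 in either direction. By this rule 7 members were higher in *Rag1Cre-Nfatc1fl/fl* γδ thymocytes, namely *Fbln1*, *Adam19*, *Adam15*, *Itgb2*, *Itga2*, *Itga7* and *Col8a2*, and 2 were lower, namely *Lamc1* and *Col6a2*. The 9 called members made up 16.1% of those tested, whereas 9.98% of all 13185 tested genes were called. In the higher direction the shares were 12.5% of members and 6.47% of all tested genes, and in the lower direction 3.57% and 3.51%. *Itga7* and *Col8a2* had fewer than 10 reads in each control and passed the filter only through the *Rag1Cre-Nfatc1fl/fl* libraries. These 2 members count in the 12.5% but could hardly have been called lower. The median log2 fold change was 0.10 over the tested members and -0.0069 over all tested genes. The groups did not overlap in CPM for 13 members that were higher and 9 that were lower in *Rag1Cre-Nfatc1fl/fl* libraries, together 22 of 56, while 46.7% of all tested genes showed no overlap in either direction. By kind, 3 of 20 tested integrin chains, 4 of 18 tested matrix genes and 2 of 15 tested proteases were called. Because these are bulk samples, fewer cells of a type and less RNA per cell cannot be told apart.

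**Figure D1:**
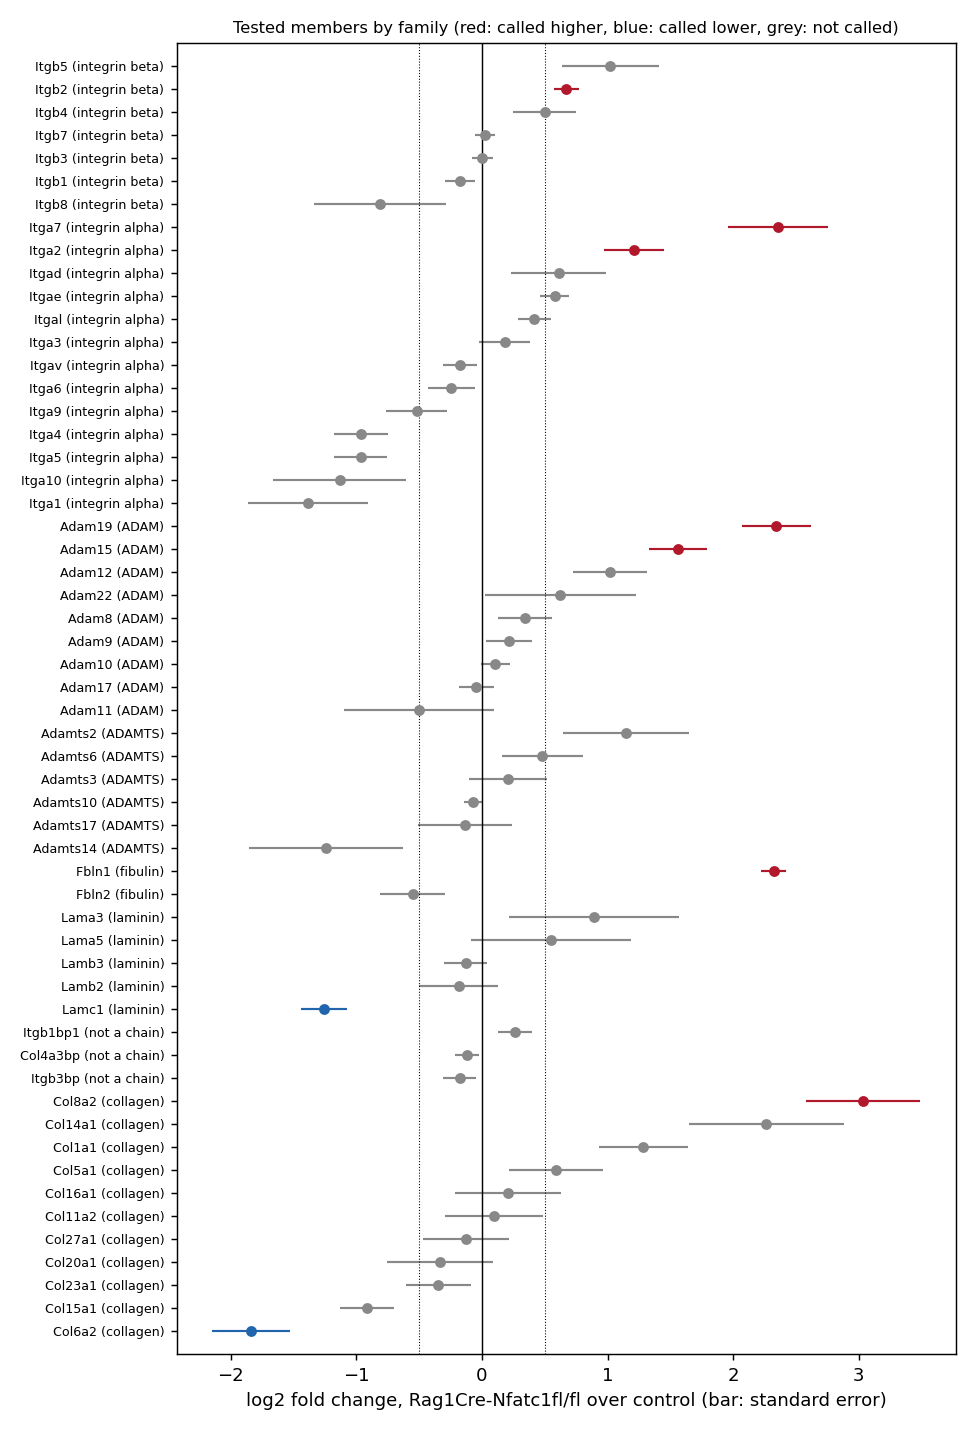
Log2 fold change of each of the 56 tested members, grouped by family, with its standard error as a horizontal bar; the x axis is the log2 ratio of *Rag1Cre-Nfatc1fl/fl* over control and the dotted lines mark a change of 0.5. The 7 members called higher are red, the 2 called lower are blue, and the other 47 are grey.

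Promoter sequences were looked up for the called members because NFAT proteins bind DNA at the core GGAAA. RefSeq promoters of 300 bases (build GRCm38.p6, 250 bases before to 50 after a transcript start) were at hand for 91 of the 141 members and for 6 of the 9 called ones, and the entry nearest to the gene's start in the files was used. Shown 5′ to 3′ along the gene's strand, with each GGAAA (or TTTCC, its match on the other strand) in capitals, are the promoters of the 2 called members with the lowest adjusted p, the called integrin with a listed promoter, and the lower collagen:
Fbln1 (chr15:85205699-85205998, plus strand): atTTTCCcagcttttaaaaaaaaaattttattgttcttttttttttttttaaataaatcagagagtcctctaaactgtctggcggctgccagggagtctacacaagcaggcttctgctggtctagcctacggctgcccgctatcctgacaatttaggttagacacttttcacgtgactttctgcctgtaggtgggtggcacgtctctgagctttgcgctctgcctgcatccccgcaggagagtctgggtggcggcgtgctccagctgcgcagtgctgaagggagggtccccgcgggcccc
Adam19 (chr11:46055734-46056033, plus strand): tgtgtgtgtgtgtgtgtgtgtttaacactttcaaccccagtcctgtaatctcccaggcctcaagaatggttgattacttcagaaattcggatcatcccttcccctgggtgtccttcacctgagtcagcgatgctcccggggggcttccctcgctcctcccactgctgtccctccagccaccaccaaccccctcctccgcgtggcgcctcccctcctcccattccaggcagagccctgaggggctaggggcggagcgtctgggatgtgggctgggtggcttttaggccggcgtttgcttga
Itga2 (chr13:114932051-114932350, minus strand): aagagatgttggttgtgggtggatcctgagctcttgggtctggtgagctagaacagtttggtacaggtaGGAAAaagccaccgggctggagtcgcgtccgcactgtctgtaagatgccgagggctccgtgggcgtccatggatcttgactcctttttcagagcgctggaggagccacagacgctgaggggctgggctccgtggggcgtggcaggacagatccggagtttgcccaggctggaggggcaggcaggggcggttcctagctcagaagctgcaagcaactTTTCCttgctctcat
Col6a2 (chr10:76623581-76623880, minus strand): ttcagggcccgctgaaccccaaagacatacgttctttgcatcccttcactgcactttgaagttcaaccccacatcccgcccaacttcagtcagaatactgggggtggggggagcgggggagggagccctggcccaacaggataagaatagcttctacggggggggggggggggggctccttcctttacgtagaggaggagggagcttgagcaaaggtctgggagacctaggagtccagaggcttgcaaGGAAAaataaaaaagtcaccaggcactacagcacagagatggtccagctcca
The core stood in the promoters of 5 of the 6 called members, with 2 matches in *Itga2*, 1 each in *Fbln1*, *Col6a2*, *Adam15* and *Col8a2*, and none in *Adam19*. Of all 32817 listed promoters, 61.3% held it. The sequence CACCTG, a site of the E protein family of transcription factors, stood in 1 of the 6 promoters, that of *Adam19*, and in 20.2% of all promoters (either strand). These are counts of letters in a window, and binding was not examined here. The study did measure NFATc1 binding by ChIP-seq, in total thymocytes that carried a tagged NFATc1, and those data were not used.

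Levels per length (TPM, recomputed from exon reads) were carried by a few integrin chains. The 8 members with the most reads held 85.4% of all member reads, 14 members reached a mean of 10 TPM and 32 a mean of 1 TPM. In control γδ thymocytes the highest TPM belonged to *Itgal* (386 ± 23.2 SD, n = 3) and *Itgb2* (385 ± 42.3), which encode the αL and β2 chains of LFA-1, followed by *Itgb7* (336 ± 10.2), the partner of α4 and αE, *Itgb3* (183 ± 13.9), a partner of αV, *Itgb1* (127 ± 9.35), the shared partner of most matrix-binding α chains, and *Itgae* (98.6 ± 9.53), the αE chain. *Itgal* and *Itgb2* lay within each other's SD and so had no order. The protease *Adam10* followed at 94.7 ± 5.26 TPM and *Itga4*, the α4 chain, at 50.2 ± 3.02 TPM. Matrix genes were far below: the highest of them in the controls was *Fbln1* (11.1 ± 0.43 TPM), then *Lamc1* (7.61 ± 0.67 TPM), and no collagen reached a mean of 1 TPM over the 6 libraries. In *Rag1Cre-Nfatc1fl/fl* γδ thymocytes *Fbln1* (50.4 ± 8.21 TPM) and *Adam19* (48.2 ± 19.0 TPM) stood above *Itga4* (23.8 ± 9.77 TPM), whereas in the controls both were under it.

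**Figure D2:**
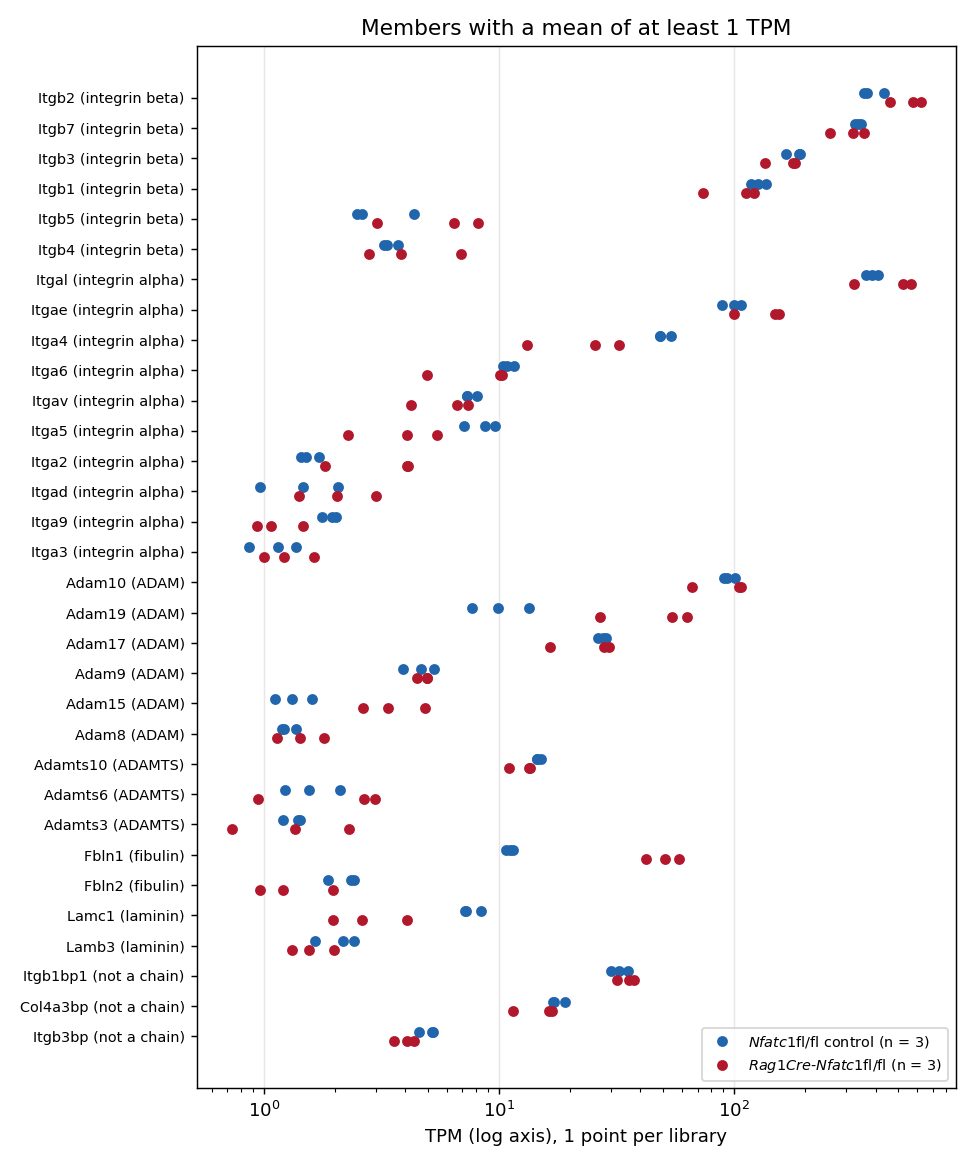
TPM in each library (log axis) of the 32 members with a mean of at least 1 TPM, blue for the 3 control and red for the 3 *Rag1Cre-Nfatc1fl/fl* libraries. *Itgb2*, *Itgal* and *Itgb7* lie at the top of the range, and the 2 groups lie far apart for *Fbln1* and *Adam19*.

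The leukocyte integrin chain *Itgb2* (chr10:77530252-77565708), whose product pairs with αL and, in other leukocytes, with αM, αX and αD, rose in *Rag1Cre-Nfatc1fl/fl* γδ thymocytes. Its CPM were 422, 483 and 416 in the controls and 676, 753 and 677 in the *Rag1Cre-Nfatc1fl/fl* libraries. The groups did not overlap, and the third *Rag1Cre-Nfatc1fl/fl* library lay beside the first. The log2 fold change was 0.67 ± 0.098 (SE; edgeR adjusted p = 0.00272), or 1.59-fold. The call was lost without control replicate 1 (0.64, adjusted p = 0.0211 in edgeR), control replicate 3 (0.64, adjusted p = 0.0231) or *Rag1Cre-Nfatc1fl/fl* replicate 2 (0.62, adjusted p = 0.0145), with the size nearly the same. Its partner *Itgal* gave 928, 982 and 941 CPM in the controls and 1323, 1464 and 1024 CPM in the *Rag1Cre-Nfatc1fl/fl* libraries, so these groups did not overlap either, but the third library lay near the controls. *Itgal* was not called (log2 fold change 0.42 ± 0.14, edgeR adjusted p = 0.0586), and without *Rag1Cre-Nfatc1fl/fl* replicate 3 it was (0.56, adjusted p = 0.000222). *Itgad*, the αD chain, was low and overlapped between groups, with 3.83, 1.93 and 2.67 CPM in the controls against 3.67, 2.69 and 6.60 CPM. Macrophages also use β2 integrins. A list of 12 macrophage and monocyte genes summed to 95.5, 30.7 and 21.6 CPM in the controls and 85.2, 54.9 and 292 CPM in the *Rag1Cre-Nfatc1fl/fl* libraries, with 12 of 12 detected and none called. Its defining gene *C1qa* gave 23.1, 6.60 and 5.70 CPM against 21.3, 13.2 and 80.2 CPM. The macrophage sum was highest in the third *Rag1Cre-Nfatc1fl/fl* library, where *Itgad* was also highest and *Itgb2* was not, and its part in these values was not tested.

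The α chains that pair with β7 pointed in opposite directions, each just short of the call, and *Itgb7* itself was not called. *Itgb7* gave 355, 356 and 352 CPM in the controls and 384, 354 and 344 CPM in the *Rag1Cre-Nfatc1fl/fl* libraries (log2 fold change 0.03 ± 0.081, edgeR adjusted p = 0.844), and its sign turned under some settings. For *Itgae*, the E-cadherin receptor chain of intraepithelial T cells, the values were 180, 183 and 155 CPM against 266, 283 and 223 CPM. For *Itga4*, whose product with β1 or β7 binds VCAM-1, fibronectin and MAdCAM-1, they were 266, 252 and 283 CPM against 176, 144 and 90.4 CPM. Neither gene's groups overlapped, and in both the third *Rag1Cre-Nfatc1fl/fl* library was the lowest of its group. Both narrowly missed the call, *Itgae* with a log2 fold change of 0.58 ± 0.12 (edgeR adjusted p = 0.0106) and *Itga4* with -0.96 ± 0.21 (edgeR adjusted p = 0.0158). Without *Rag1Cre-Nfatc1fl/fl* replicate 3 both were called in edgeR, *Itgae* at 0.68 (adjusted p = 0.000231) and *Itga4* at -0.73 (adjusted p = 0.00033), and *Itga4* also without replicate 1 (-1.18, adjusted p = 0.00794). With the length trend removed both passed as well, *Itgae* at 0.52 (adjusted p = 0.00746) and *Itga4* at -0.89 (adjusted p = 0.00171).

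Ratios of TPM within a library need no scaling between libraries, but a library's length trend need not cancel between genes of unlike length. *Itgae* over *Itga4* was 2.07, 2.21 and 1.65 in the controls and 4.62, 6.03 and 7.61 in the *Rag1Cre-Nfatc1fl/fl* libraries, a difference of 1.61 on the log2 scale (exact permutation test, two-sided, p = 0.1, the smallest that 3 against 3 can give). The lowest *Rag1Cre-Nfatc1fl/fl* ratio lay above the highest control ratio by a wide margin. Because both genes had already separated in CPM, in opposite directions, their ratio had to separate too. Its p-value therefore adds no support to the values given above. *Itgb2* over *Itgb1* was 2.82, 3.17 and 3.10 in the controls against 4.72, 5.54 and 6.28, a log2 difference of 0.86 (same test, exact p = 0.1). This ratio likewise reuses the *Itgb2* values given above. *Itgb7* over *Itgb1* differed by 0.21 and *Adam10* over *Adam17* by 0.15 on the log2 scale, again without overlap and with an exact p of 0.1. For *Itgb7* over *Itgb1* the groups nearly touched, with a highest control ratio of 2.845 and a lowest *Rag1Cre-Nfatc1fl/fl* ratio of 2.848. With 4 ratios tested at this smallest p, none could pass a threshold of 0.05 in this design.

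Among the chains that pair with β1, the collagen receptor chain *Itga2* and the laminin receptor chain *Itga7* rose, both from low levels. *Itga2* (chr13:114833081-114932100) had 4.86, 4.002 and 4.007 CPM in the controls and 11.2, 12.0 and 6.60 CPM in the *Rag1Cre-Nfatc1fl/fl* libraries. Its groups did not overlap, with the third *Rag1Cre-Nfatc1fl/fl* library nearest to the controls. The log2 fold change of 1.21 ± 0.24 passed by a small margin (edgeR adjusted p = 0.00993) and was lost without any of the other 5 libraries, at adjusted p = 0.0327, 0.0463 and 0.0479 for control replicates 1, 2 and 3 and 0.0285 and 0.037 on leaving out *Rag1Cre-Nfatc1fl/fl* replicates 1 and 2 (edgeR), while its size stayed between 1.05 and 1.44. Without *Rag1Cre-Nfatc1fl/fl* replicate 3 the adjusted p was 0.000137. *Itga7* (chr10:128933818-128958282) had 0.344, 0.176 and 0.267 CPM in the controls and 1.79, 1.05 and 1.27 CPM in the *Rag1Cre-Nfatc1fl/fl* libraries, or 17 exon reads against 86 over 3 libraries each, with no overlap. Its log2 fold change was 2.36 ± 0.40 (edgeR adjusted p = 0.00501), and the call was lost without each library except *Rag1Cre-Nfatc1fl/fl* replicate 3, at adjusted p of 0.0189, 0.0274 and 0.0278 for the controls and 0.0179 and 0.0127 for replicates 1 and 2.

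Other β1 partners were not called. *Itgb1* itself gave 203, 206 and 181 CPM against 193, 183 and 147 CPM (log2 fold change -0.17 ± 0.12, edgeR adjusted p = 0.325), with overlap between the groups. *Itga1*, the other collagen receptor α chain, lies 20996 bases from *Itga2* and had 1.72, 2.95 and 2.09 CPM in the controls and 1.19, 1.09 and 0.264 CPM in the *Rag1Cre-Nfatc1fl/fl* libraries. It thus pointed the other way without a call (-1.38 ± 0.48, edgeR adjusted p = 0.0731), and its span overlaps *Pelo* on the same strand, whose reads may be shared. The fibronectin receptor chain *Itga5*, picked after its values were seen, had 17.6, 17.9 and 13.9 CPM against 10.9, 8.20 and 6.18 CPM, without overlap. Its log2 fold change of -0.97 ± 0.21 missed the call (edgeR adjusted p = 0.0148) but passed without *Rag1Cre-Nfatc1fl/fl* replicate 1 (-1.19, adjusted p = 0.00703) or replicate 3 (-0.78, adjusted p = 0.00512). *Itga6*, a laminin receptor chain, was not called (-0.24 ± 0.19, edgeR adjusted p = 0.385), nor was the low collagen receptor chain *Itga10* (-1.13 ± 0.53, adjusted p = 0.161).

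Of the remaining β chains, *Itgb3*, a subunit of the vitronectin receptor, gave 383, 413 and 418 CPM in the controls and 414, 416 and 385 CPM in the *Rag1Cre-Nfatc1fl/fl* libraries. These groups overlapped fully (log2 fold change 0.0033 ± 0.083, edgeR adjusted p = 0.982). *Itga2b*, the platelet partner of β3, had 11 reads over all 6 libraries, and the 8 platelet genes summed to at most 1.19 CPM in any library. *Itgb5*, which pairs with αV, had 6.24, 3.65 and 3.38 CPM against 11.4, 4.46 and 11.1 CPM and was not called (1.02 ± 0.39, edgeR adjusted p = 0.0936). Its CPM were alike in *Rag1Cre-Nfatc1fl/fl* replicates 1 and 3, where the macrophage sum given above was 85.2 and 292 CPM. Both *Itgb5* and that sum had their highest control in replicate 1, and a part of macrophages in *Itgb5* was not tested.

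**Figure D3:**
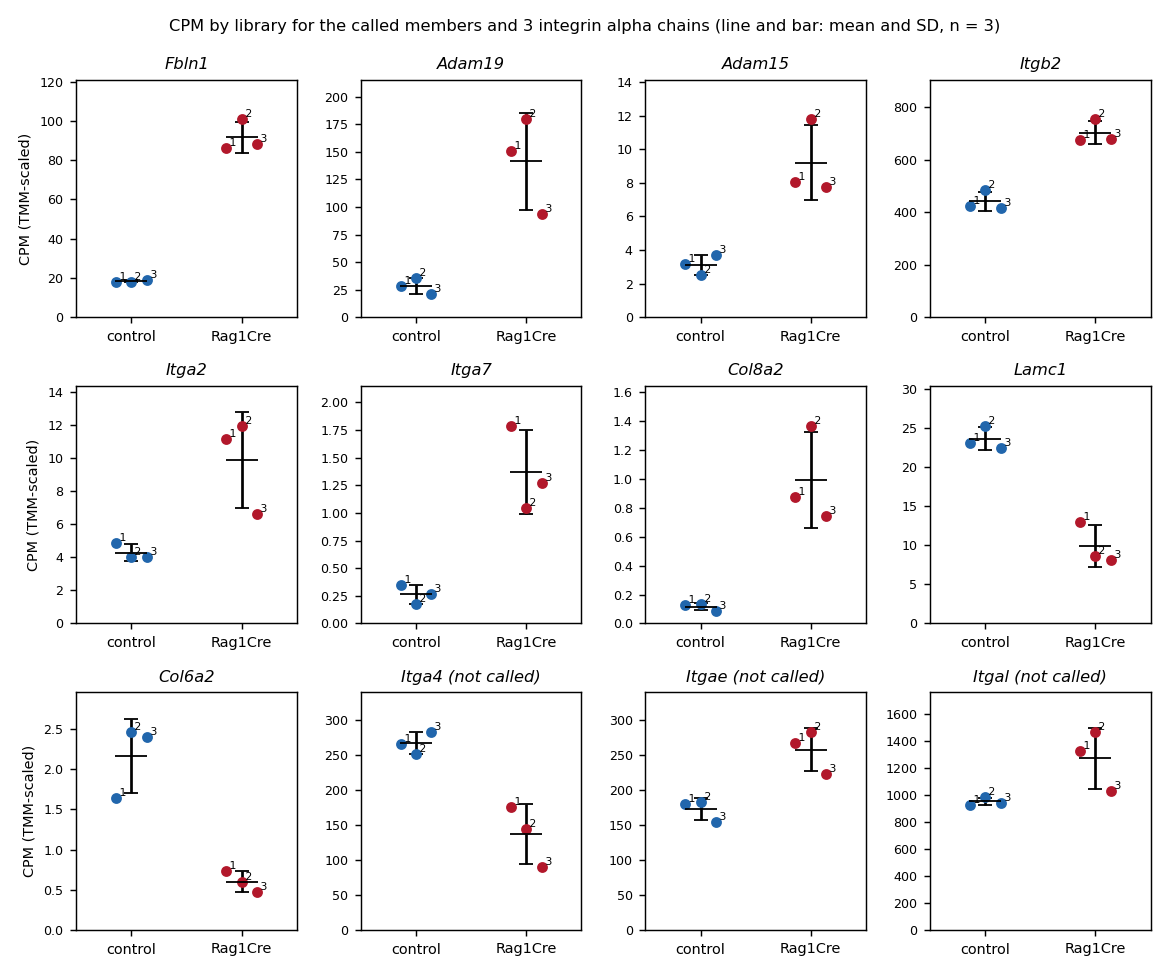
CPM in each library (numbered by replicate) of the 9 called members and of *Itga4*, *Itgae* and *Itgal*, with the mean and SD of each group of 3; each y axis starts at 0. No gene shown has overlapping groups, and *Rag1Cre-Nfatc1fl/fl* replicate 3 is the lowest of its group for 9 of the 12, all but *Fbln1*, *Itgb2* and *Itga7*.

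The ADAM proteases contained a large rise in *Adam19*. This protease, known from heart valve formation and for cutting neuregulin, lies at chr11:46055992-46147343 and had 27.8, 35.2 and 20.6 CPM in the controls and 151, 180 and 93.2 CPM in the *Rag1Cre-Nfatc1fl/fl* libraries. Even the lowest of the latter was over the highest control by a wide gap. The log2 fold change was 2.34 ± 0.27 (edgeR adjusted p = 0.00101), or 5.07-fold, and the call held without each library in turn, at 2.13 to 2.58. *Adam15*, a member with an integrin-binding RGD motif in the human protein, lies at chr3:89338542-89349996 and had 3.14, 2.51 and 3.70 CPM against 8.08, 11.8 and 7.76 CPM. Its groups did not overlap either (log2 fold change 1.56 ± 0.23, edgeR adjusted p = 0.0028), but the call was lost without control replicate 1, 2 or 3 (adjusted p = 0.0182, 0.0148 and 0.0107).

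The main sheddases of T cells showed no such rise. *Adam10*, which cuts Notch and many adhesion receptors, gave 173, 181 and 171 CPM in the controls and 200, 209 and 156 CPM in the *Rag1Cre-Nfatc1fl/fl* libraries (log2 fold change 0.11 ± 0.12, edgeR adjusted p = 0.54). *Adam17*, which releases TNF, gave 74.2, 75.8 and 74.7 CPM against 77.4, 83.3 and 57.3 CPM (-0.04 ± 0.14, edgeR adjusted p = 0.84). In both the *Rag1Cre-Nfatc1fl/fl* values lay on either side of the controls, with the third library lowest. *Adam9* (0.22 ± 0.18) was not called either, and *Adam12* had 2.71, 1.89 and 1.60 CPM against 5.65, 3.46 and 3.48 CPM without overlap or call (1.02 ± 0.29, edgeR adjusted p = 0.0409). Of 33 ADAM genes 24 were not tested, 12 of them without a read in any library. None of the 6 tested ADAMTS genes was called by edgeR. The most abundant, *Adamts10*, which binds fibrillin, gave 32.4, 31.8 and 30.7 CPM in the controls and 30.1, 30.3 and 30.2 CPM in the *Rag1Cre-Nfatc1fl/fl* libraries (-0.07 ± 0.079, edgeR adjusted p = 0.572). The next by TPM were *Adamts6* (0.48 ± 0.32), *Adamts3* (0.21 ± 0.31) and *Adamts17* (-0.14 ± 0.38), of which *Adamts3* and *Adamts17* turned sign under some settings. *Adamts2*, a procollagen N-proteinase, and *Adamts14*, a close relative of it, differed by more than 1 on the log2 scale in opposite directions, 1.15 ± 0.50 and -1.24 ± 0.61, with at most 1.51 CPM in any library and no call. *Adamts14* gave -2.47 without *Rag1Cre-Nfatc1fl/fl* replicate 1 and -0.85 without *Rag1Cre-Nfatc1fl/fl* replicate 2, and *Adamts2* lay between 0.84 and 1.69 when 1 library was left out.

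*Fbln1*, which encodes fibulin-1, a secreted calcium-binding glycoprotein of basement membranes and elastic fibres, gave the clearest change of all members. It lies at chr15:85205949-85286535 and had 18.1, 17.99 and 18.97 CPM in the controls and 86.0, 101 and 88.4 CPM in the *Rag1Cre-Nfatc1fl/fl* libraries. The groups were tight and far apart, and the third library was not low. The log2 fold change was 2.32 ± 0.097 (edgeR adjusted p = 1.45e-05) and lay between 2.25 and 2.37 when 1 library was left out. Of its reads 99.4% fell on exons, and exon-exon junction reads were 345, 323 and 348 in the controls and 1524, 1819 and 1390 in the *Rag1Cre-Nfatc1fl/fl* libraries. *Fbln2*, its relative, had 4.73, 5.67 and 5.74 CPM against 4.82, 2.41 and 3.80 CPM and was not called (-0.55 ± 0.26, edgeR adjusted p = 0.161), while *Fbln5* and *Fbln7* had 2 and 1 reads in all. Fibroblasts are a usual source of fibulins. The fibroblast list summed to 51.3 to 66.2 CPM in the controls and 25.9 to 33.0 CPM in the *Rag1Cre-Nfatc1fl/fl* libraries, with 9 of 12 genes detected, and *Pdgfra*, *Lum* and *Mfap5* at 0 reads in each library. The sum followed *Pdgfrb* (a mean of 57.4 CPM against 25.7 CPM), the only one of the 4 tested genes to be called. Of the list, 2 other genes lay the other way at low levels without overlap between groups: *Postn* had 0.258, 0.440 and 0.0445 CPM against 1.15, 0.683 and 2.38 CPM and was not called (log2 fold change 2.46 ± 0.69, edgeR adjusted p = 0.0373), and *Acta2*, which was too low to be tested, had 0.0861, 0.176 and 0.0890 CPM against 0.367, 0.501 and 0.739 CPM. *Fbn1* fell like *Pdgfrb*, with 0.603, 0.924 and 0.801 CPM against 0.413, 0.319 and 0.106 CPM. Its groups did not overlap, and it was not called (-1.43 ± 0.48, edgeR adjusted p = 0.065). *Fap* had 3 reads in all, each in a control library. The part of fibroblast RNA in the *Fbln1* values was not tested.

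*Lamc1*, the laminin γ1 chain that most laminin trimers contain, fell in *Rag1Cre-Nfatc1fl/fl* γδ thymocytes. It lies at chr1:153218922-153332786 and had 23.1, 25.3 and 22.5 CPM in the controls and 13.0, 8.61 and 8.08 CPM in the *Rag1Cre-Nfatc1fl/fl* libraries. The groups did not overlap, and the controls spread less. The log2 fold change was -1.25 ± 0.18 (edgeR adjusted p = 0.00272), 2.38-fold lower, and the call was lost without control replicate 1, 2 or 3 (adjusted p = 0.0152, 0.0154 and 0.0143) or *Rag1Cre-Nfatc1fl/fl* replicate 2 (adjusted p = 0.0133), with values from -1.50 to -1.12. Other laminin chains were scarce. *Lamb1* and the other laminin chains that were not tested had at most 30 reads each over the 6 libraries. Of the tested chains, *Lamb3* had a mean of 2.08 TPM and *Lamb2* 0.82 TPM in the controls, and the α chains *Lama3* and *Lama5* stayed below 0.1 TPM there. None of these 4 was called by edgeR, with log2 fold changes of -0.13 ± 0.17 for *Lamb3*, -0.19 ± 0.32 for *Lamb2*, 0.89 ± 0.68 for *Lama3* and 0.55 ± 0.64 for *Lama5*. Values of both α chains moved with single controls: *Lama3* gave 2.17 without control replicate 2, and *Lama5* gave 1.61 without control replicate 3 and 0.18 without control replicate 2. *Lamb3* overlaps *Hsd11b1* and *G0s2* on the other strand, and the library kit does not keep strand, so its reads are uncertain.

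Collagen RNA was near the limit of detection. Of 44 collagen genes 39 had a read and 11 were tested, the most abundant of them at 0.85 TPM over the 6 libraries. *Col6a2*, an α chain of the microfibrillar type VI collagen at chr10:76595762-76623630, fell from 1.64, 2.46 and 2.40 CPM in the controls to 0.734, 0.592 and 0.475 CPM in the *Rag1Cre-Nfatc1fl/fl* libraries. The groups did not overlap (log2 fold change -1.83 ± 0.31, edgeR adjusted p = 0.00514). The call was lost without each library except *Rag1Cre-Nfatc1fl/fl* replicate 3 (adjusted p = 0.0118, 0.0289 and 0.0283 without control replicates 1, 2 and 3, and 0.012 and 0.024 without replicates 1 and 2). The other chains of type VI collagen were too low to test, with 20 reads for *Col6a1* and 7 for *Col6a3* over all libraries against 186 for *Col6a2*; these chains were picked for their shared trimer.

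*Col8a2*, a short-chain collagen of corneal and endothelial basement membranes at chr4:126286793-126314330, was called higher on few reads of an unusual kind. Its CPM were 0.129, 0.132 and 0.089 in the controls and 0.872, 1.37 and 0.739 in the *Rag1Cre-Nfatc1fl/fl* libraries (log2 fold change 3.03 ± 0.46, edgeR adjusted p = 0.00309). The groups did not overlap, but 29.6% of the reads fell on exons and none spanned an exon-exon junction. On exons there were 1, 2 and 1 reads in the controls and 4, 9 and 4 in the *Rag1Cre-Nfatc1fl/fl* libraries, in introns 2, 1 and 1 against 15, 21 and 10, so most of its reads lay in introns. The call was lost when control replicate 1, 2 or 3 (edgeR adjusted p = 0.0188, 0.0176 and 0.0213) or *Rag1Cre-Nfatc1fl/fl* replicate 2 (0.0146) was left out, and the gene did not pass the filter on exon reads.

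The remaining collagens were not called. *Col1a1*, a chain of the main fibrillar collagen, had 1.12, 1.23 and 1.47 CPM in the controls and 2.85, 4.60 and 1.85 CPM in the *Rag1Cre-Nfatc1fl/fl* libraries (log2 fold change 1.28 ± 0.36, edgeR adjusted p = 0.0355). It was called without *Rag1Cre-Nfatc1fl/fl* replicate 3 (1.56, adjusted p = 0.00378), while *Col1a2*, its partner in the trimer, had 4 reads over all libraries. *Col15a1*, a basement membrane collagen, had 2.37, 2.37 and 2.49 CPM against 1.33, 1.18 and 1.32 CPM without overlap (-0.91 ± 0.22, edgeR adjusted p = 0.0205). *Col14a1* had 0.301, 0.132 and 0.0445 CPM against 0.734, 0.501 and 1.16 CPM, also without overlap (2.26 ± 0.62, edgeR adjusted p = 0.0331). The groups overlapped for *Col23a1* (-0.35 ± 0.26) and *Col5a1* (0.59 ± 0.37).

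The 5 genes named for an integrin or collagen but encoding no chain were set apart. *Itgb1bp1*, a cytoplasmic protein that binds the β1 tail and limits activation, gave 39.2, 43.7 and 40.9 CPM in the controls and 46.4, 42.2 and 60.1 CPM in the *Rag1Cre-Nfatc1fl/fl* libraries and was not called (log2 fold change 0.27 ± 0.14, edgeR adjusted p = 0.196). *Col4a3bp*, which encodes the ceramide transporter CERT (-0.12 ± 0.094), and *Itgb3bp*, a centromere protein (-0.18 ± 0.13), had overlapping groups and no call. Without these 5 genes, 9 of 53 tested members were called, or 17.0%.

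**Figure D4:**
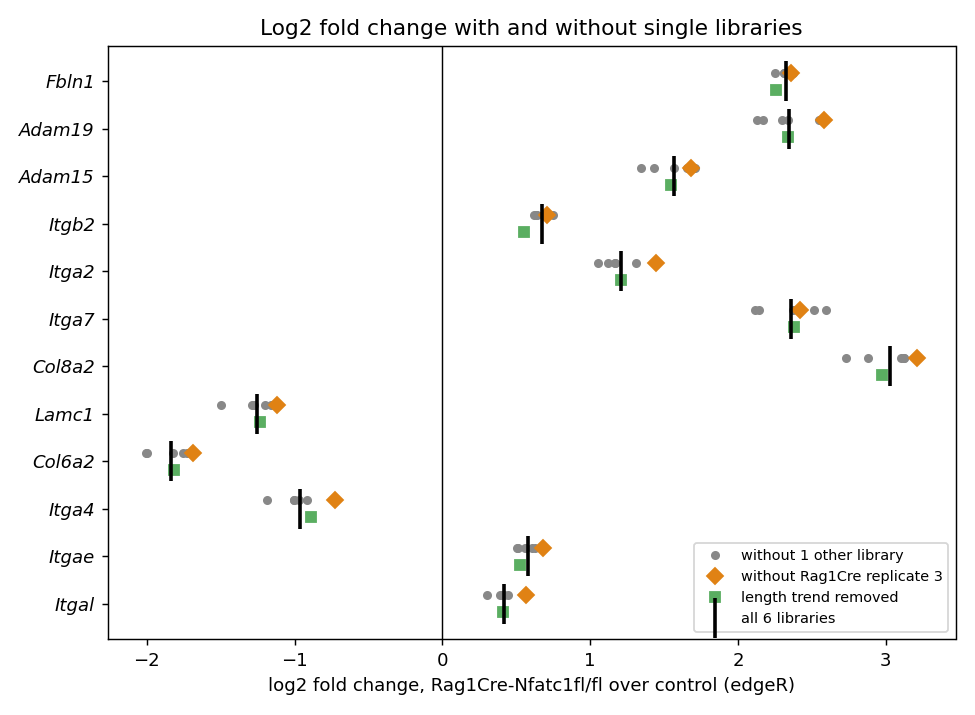
Log2 fold change of the 9 called members and of *Itga4*, *Itgae* and *Itgal* from edgeR with all 6 libraries (black bar), without 1 library (grey, or orange for *Rag1Cre-Nfatc1fl/fl* replicate 3) and with the length trend removed (green). No value crosses 0, *Fbln1* moves least (2.25 to 2.37 without 1 library), and leaving out *Rag1Cre-Nfatc1fl/fl* replicate 3 brings *Itga4* nearer to 0 and moves *Itga2*, *Itgae* and *Itgal* away from it.

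Leaving out single libraries changed the number of called members by more than the scaling did. It was 2 higher and 0 lower without control replicate 1, 3 and 0 without control replicate 2, and 2 and 0 without control replicate 3. It was 5 and 3 without *Rag1Cre-Nfatc1fl/fl* replicate 1, 3 and 0 without replicate 2, and 10 and 5 without replicate 3. The share of all tested genes called moved along, from 3.63%, 4.02% and 3.62% without a control to 7.47%, 4.68% and 13.4% without a *Rag1Cre-Nfatc1fl/fl* library. *Fbln1* and *Adam19* were called in each of these 6 fits.

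The genes that act with the members were taken from 6 lists, 225 genes in the tables when each is counted once. Of these, 141 were tested, 20 were called higher and 11 lower in *Rag1Cre-Nfatc1fl/fl* γδ thymocytes, together 21.99%. Over all tested genes 9.98% were called, 6.47% higher and 3.51% lower. *Tns2*, *Icam4*, *Tspan17* and *Pcolce2* passed the filter on low counts only through the *Rag1Cre-Nfatc1fl/fl* libraries. They count among the higher genes but could hardly have been called lower. The lists were chosen with earlier results of these data known, so these shares are set side by side as description only. The lists had a median log2 fold change of 0.05 against -0.0069 over all tested genes. Of the 31 called genes, 9 were also called without each library in turn, and most of them are described by list below. When control replicate 1, 2 or 3 was left out the lists had 9, 9 and 5 higher and 4, 5 and 4 lower calls, and when *Rag1Cre-Nfatc1fl/fl* replicate 1, 2 or 3 was left out there were 14, 7 and 25 higher and 7, 5 and 13 lower calls.

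Inside the cell, 43 of 49 genes of integrin activation and adaptor function were tested, with 4 higher and 4 lower and a median log2 fold change of -0.08. *Actn1*, which encodes α-actinin-1, a link between integrin tails and actin, fell from 204, 215 and 190 CPM in the controls to 116, 93.3 and 96.1 CPM in the *Rag1Cre-Nfatc1fl/fl* libraries (log2 fold change -0.99 ± 0.11, edgeR adjusted p = 0.000778). The groups were far apart, and this call held without each library. *Tns1*, which encodes the adaptor tensin-1, was also lower (-0.89 ± 0.14). Its paralogue *Tns2* (3.53 ± 0.52) was higher, as was *Tln2*, for talin-2 (1.86 ± 0.26), both from at most 1.11 CPM in any control. *Tns2* had 5, 2 and 1 exon reads in the controls. The most abundant genes of the list, *Fermt3* for kindlin-3 (0.15 ± 0.087) and *Parvg* for γ-parvin (0.06 ± 0.087), were not called.

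Among 19 tested genes of integrin ligands on cells and in matrix, 1 was higher and 2 were lower (median 0.26). *Emilin1*, an elastic fibre glycoprotein bound by α4β1, fell from 105, 111 and 104 CPM to 49.8, 45.1 and 39.2 CPM (log2 fold change -1.25 ± 0.11, edgeR adjusted p = 0.000235) and was called without each library. *Npnt*, for the α8β1 ligand nephronectin, was lower (-0.89 ± 0.18), and *Icam4*, an LFA-1 ligand of red cells, was higher from 0.473 CPM or less in the controls (2.18 ± 0.35). Of 21 tested genes of collagen assembly and other matrix, 2 were higher and 0 lower (median -0.0060). *Pcolce2*, an enhancer of procollagen processing, had 0.129, 0.0440 and 0 CPM in the controls, 4 reads in all, and 3.30, 3.73 and 3.17 CPM in the *Rag1Cre-Nfatc1fl/fl* libraries, where it was called without each library (edgeR adjusted p = 0.000338). *Pcolce2* passed the filter on low counts only through the *Rag1Cre-Nfatc1fl/fl* libraries and could hardly have been called lower. *Crtap*, a subunit of the collagen prolyl 3-hydroxylase complex, was higher as well (0.69 ± 0.097).

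Receptors for matrix and carbohydrate that are not integrins showed 4 higher and 2 lower of 17 tested (median -0.24). *Ddr1*, a receptor tyrosine kinase for collagen, rose from 2.63, 4.62 and 2.32 CPM in the controls to 63.3, 79.5 and 58.1 CPM in the *Rag1Cre-Nfatc1fl/fl* libraries (log2 fold change 4.39 ± 0.26, edgeR adjusted p = 4.84e-05). *Mrc2*, an endocytic collagen receptor, gave 2.32, 0.748 and 1.07 CPM against 10.4, 13.3 and 7.13 CPM (2.89 ± 0.41). In both genes the groups lay far apart, and *Ddr1* was called without each library.

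For the proteases, 20 genes of ADAM regulators and other metalloproteinases were tested, with 5 higher and 1 lower (median 0.33). *Adamtsl3*, a protease-like protein without a catalytic domain, had 1.16, 1.06 and 0.490 CPM against 7.57, 11.1 and 7.02 CPM and was called without each library (3.24 ± 0.33, edgeR adjusted p = 0.000587). Of its reads 60.7% fell on exons, and in *Rag1Cre-Nfatc1fl/fl* replicate 3 there were 82 intron reads against 51 exon reads. *Timp2*, an inhibitor of metalloproteinases, rose from 151, 152 and 158 CPM to 221, 252 and 255 CPM (0.66 ± 0.087), and *Tspan5*, a tetraspanin that escorts ADAM10, was higher too (0.80 ± 0.13). Of 23 tested genes whose proteins are shed by ADAM10 or ADAM17, 4 were higher and 3 lower (median 0.38). The T cell help ligand *Cd40lg* rose from 2.41, 3.39 and 1.96 CPM to 29.5, 41.4 and 26.8 CPM (3.65 ± 0.25), and the inhibitory receptor *Lag3* from 7.10, 7.61 and 6.99 CPM to 16.4, 18.3 and 18.7 CPM (1.30 ± 0.11). *Epcam*, an adhesion molecule of epithelium and thymocytes, fell from 19.5, 19.9 and 18.3 CPM to 9.04, 7.92 and 8.13 CPM (-1.20 ± 0.11). *Cd40lg*, *Lag3* and *Epcam* were called without each library, and mRNA levels do not measure shedding.

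**Figure D5:**
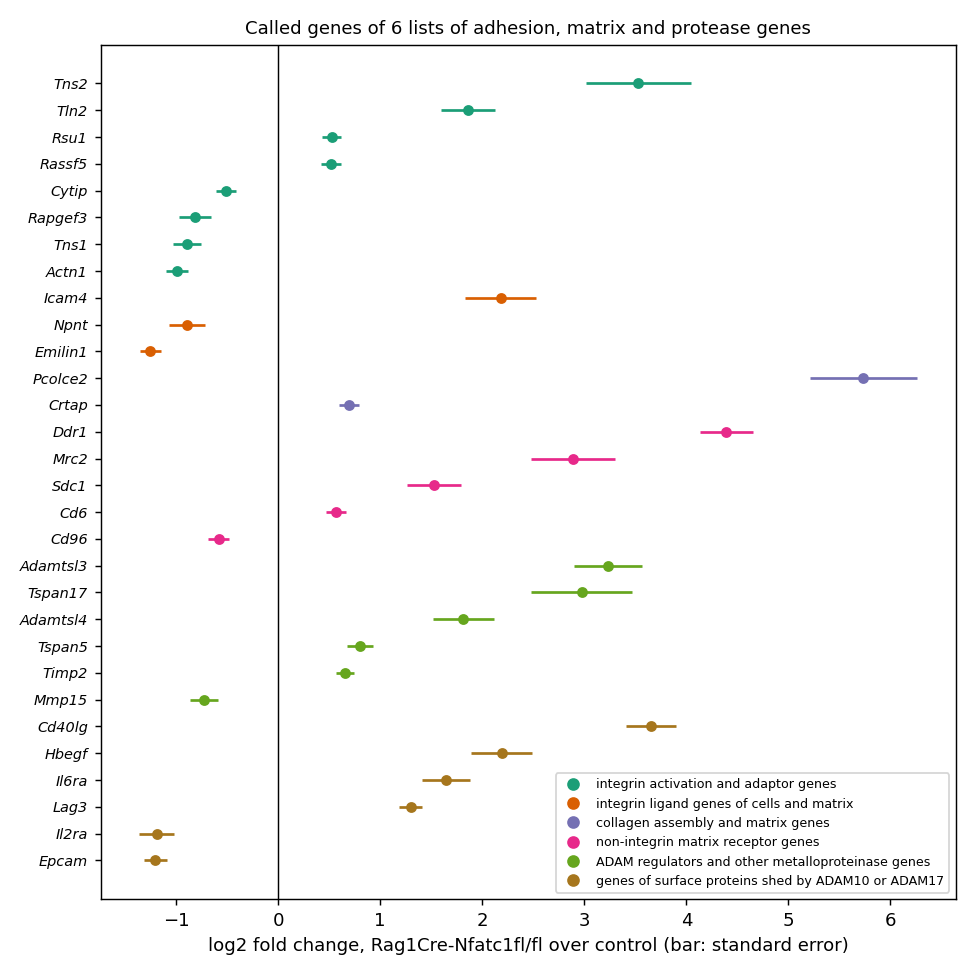
Log2 fold change (*Rag1Cre-Nfatc1fl/fl* over control, bar: standard error) of 30 called genes of the 6 lists, coloured by list. The 20 genes to the right of 0 reach furthest for *Pcolce2* and *Ddr1*, and the 10 to the left lie between -1.25 and -0.51.

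Markers of the cells that usually make matrix were low. The endothelial list summed to 147 to 168 CPM in the controls and 78.8 to 125 CPM in the *Rag1Cre-Nfatc1fl/fl* libraries, nearly all from *Pecam1*, which T cells also express, with 9 of 10 genes detected. Its defining gene *Cdh5* stayed at or below 0.56 CPM, and *Tie1* had no read. Thymic epithelial genes summed to 24.0 to 29.3 CPM in the controls and 14.8 to 23.4 CPM in the *Rag1Cre-Nfatc1fl/fl* libraries, in the controls mostly from *Epcam*, with 11 of 11 detected and the defining gene *Foxn1* at or below 0.16 CPM. Of the 5 tested genes only *Epcam* was called, and it was lower, as given above. The others, *Krt18*, *Ccl25*, *Cldn4* and *Prss16*, overlapped between groups. *Krt8* and *Krt18* were highest in *Rag1Cre-Nfatc1fl/fl* replicate 3, at 1.95 and 2.80 CPM. The part of such cells in the matrix values above was not tested.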

How the data were processed

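RNA-seq of 6 γδ thymocyte libraries was analysed, 3 per group, with groups and replicate numbers from the labels. Per the methods of the study, single 59-base reads were trimmed with cutadapt and aligned to GRCm38 with STAR. The deposited tables hold whole-number read counts per gene, exon, intron and junction, made by the authors. Those methods name featureCounts of the R package Rsubread for counting. The tables also hold columns of unique, intron and junction reads, and which program wrote that layout is not stated. The authors' TPM and RPKM columns were not used: TPM was recomputed from the deposited exon counts and exon lengths.

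Total gene read counts entered edgeR 4.0.16 under R 4.3.3 (filterByExpr with a minimum count of 10, TMM, quasi-likelihood test, genotype only), with Benjamini-Hochberg adjustment over 13185 tested genes and the thresholds of the study, an adjusted p below 0.01 with a log2 fold change above 0.5 either way. Steps were tested on simulated data. Alternatives used limma 3.58.1, DESeq2 1.42.0, other scalings, filters, reads and thresholds, and left out libraries. Named were the called members, the 4 of each family highest in TPM, uncalled members with an absolute log2 fold change over 1, partners of called integrins, and up to 4 called and the 2 most abundant genes of each related list. Sequences are from RefSeq. Members and lists were chosen with earlier results of these data known, and further genes were named after their values were seen. Single cells, proteins and the genome sequence were not analysed here, and 1 called gene of the related lists is not reported here.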

Additional observations from a re-analysis of the deposited data

How the results depend on the processing

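With 3 libraries a group, the calls depend on few samples, and low members limit what could be tested: the 85 untested members had at most 54 reads each over 6 libraries. Of 754 values of the 42 named and tested members under alternatives, 669 kept direction and side of the threshold, 49 lost the call, 15 gained it and 21 turned sign; the cause was not tested. *Fbln1* was called under each of 18 alternatives, *Adam19* except on TPM values (adjusted p = 0.0179 and 0.0206 in limma with pseudocounts of 1 and 0.1).

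All genes called numbered 1316, and 1992 with DESeq2, 524 and 498 with limma on log2(TPM + 1) and log2(TPM + 0.1), 3073 at an adjusted p under 0.05 with no fold limit, 714 at a log2 fold change over 1, and 488 to 1796 without 1 library. Members called higher were 1 and 1 on the TPM scales, 11 at the looser threshold and 2 to 10 without 1 library. Members called lower were 4 with no filter, 4 with DESeq2, 4 with the length trend removed, 0 and 1 on the TPM scales, 5 at the looser threshold and 0 to 5 without 1 library. List genes called higher were 8 and 5 on the TPM scales, 34 at the looser threshold and 5 to 25 without 1 library. List genes called lower were 5 and 4 on the TPM scales, 24 at the looser and 4 at the stricter threshold, and 4 to 13 without 1 library. With library size as the sole scaling, tested genes had a median log2 fold change of -0.11, and 700 genes were higher and 578 lower, against 853 and 463 with TMM. With the length trend removed 802 were higher and 775 lower.

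Sign turned for *Adam10* (-0.059 and -0.060 on the TPM scales), *Adam17* (0.11 without *Rag1Cre-Nfatc1fl/fl* replicate 3, in a range of -0.15 to 0.11 without 1 library), *Adamts3* (-0.0077 on log2(TPM + 0.1), and -0.24 to 0.42 without 1 library), *Adamts17* (-0.45 to 0.11), *Lamb2* (-0.37 to 0.10), *Itgb7* (-0.073 on library size, -0.12 and -0.12 on the TPM scales, -0.11 with the length trend removed, -0.019 to 0.070 without 1 library) and *Itgb3* (-0.10 on library size, -0.0019 on exon reads, -0.15 and -0.15 on the TPM scales, -0.018 with the length trend removed, -0.036 to 0.049 without 1 library), none of them called.

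*Itga2* was also not called on library size alone (adjusted p = 0.0188), with limma-voom (0.0153) or on exon reads (0.0118 in edgeR). Deviations of same-numbered libraries correlated weakly (0.026, 0.18 and 0.0055 for replicates 1, 2 and 3). With 3 libraries a group these values cannot decide whether same-numbered libraries share an origin, and the labels do not say. With the replicate block edgeR called 1171 genes, 8 members higher and 2 lower, and 21 list genes higher and 11 lower; *Col6a2* lost the call (adjusted p = 0.0151) and *Itgae* gained it (0.00504). Control replicate 2 and *Rag1Cre-Nfatc1fl/fl* replicates 1 and 2 correlated best with their own number, and the other 3 libraries did not.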
